A study of Mus musculus with 18 samples.

Results

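The 68 genes described here encode the machinery that separates chromosomes at cell division: centromere and kinetochore proteins, the spindle checkpoint, the anaphase-promoting complex, mitotic kinases, condensin subunits and the kinesin motors. They are the loci of a deposited RNA table that carry 1 gene symbol, match a list of symbol patterns (Cenp, Kif, Bub, Aurk, Anapc and Ncap genes with Plk1, Plk4, Ttk, Mad2l1, Cdc20, Ndc80, Nuf2, Spc24, Spc25, Incenp and Birc5) and have a mean RPKM (reads scaled to transcript length and to the size of the library) of at least 1 over 6 libraries. Of 14864 loci listed, 72 matched by name and 68 reached that level. The 4 below it were Kif26a, Kif26b, Kif9 and Kif21a, with means of 0.241, 0.338, 0.480 and 0.857 RPKM. The members nearest above it were Kif1a at 1.37, Kif21b at 1.44 and Cenpj at 1.66 RPKM. The pattern takes in every kinesin, so 12 members are transport, ciliary or other kinesins without a textbook role in mitosis, and Kif1bp encodes a kinesin-binding protein and not a motor. It leaves out partners named otherwise, such as Mis12, Sgo1 and Tpx2, which are given separately.

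All samples were mouse embryonic stem cells, either wild type or carrying a knockout of Tet2, an enzyme that oxidises 5-methylcytosine (m5C). Cells grew with the cytokine LIF on fibroblast feeders, which no group lacked, and RNA was selected for poly(A) and depleted of ribosomal RNA. For RNA turnover each genotype gave 1 library before actinomycin D (0 h), 1 after 3 h and 1 after 6 h of this transcription blocker, at 5 µg/ml. RNA bisulfite sequencing, which reads an unconverted cytosine as m5C, gave 2 samples per genotype, and 8 samples of an m5C immunoprecipitation with its inputs stayed out of the analysis. The labels do not name the clones, the type of Tet2 allele, or separate cultures. The bisulfite p-values therefore measure the spread between these samples only, which may be technical. With 1 RNA library per genotype and time, the RNA p-values rest on departures from the fitted course. For the slope these include a curved course and one that differs between genotypes. For the genotype and step contrasts they are differences in course between genotypes. Technical spread cannot be told apart from either.

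Mitosis depends on a relay of protein machines. The inner kinetochore sits on centromeric chromatin that carries the histone variant Cenpa, the outer kinetochore (Ndc80, Nuf2, Spc24 and Spc25) grips microtubules, and the checkpoint kinases and adaptors Bub1, Bub1b, Bub3, Mad2l1 and Ttk hold back the anaphase-promoting complex and its activator Cdc20 until every chromosome is attached. Plk4 starts centriole duplication, Aurka and Plk1 build the spindle poles, Aurkb with Incenp and Birc5 corrects faulty attachments, condensins compact chromosomes, and mitotic kinesins slide and shorten microtubules. In cultured cells the transcripts of many of these genes are made mainly in G2 and M phase, through a promoter element called the cell cycle homology region (CHR) that the MuvB complexes bind, often with CCAAT boxes bound by NF-Y beside it. Embryonic stem cells are known for fast cycles with short gap phases.

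The promoters of the members were searched for these letters because they are what the genes are best known to share in regulation. RefSeq promoters on GRCm38.p6, running from 250 bases before the start site to 50 bases after it, were given for 60 of the 68 members. The letters TTTGAA, the usual CHR core, stood on either strand in 26 of the 60, or 43.3%. They stood in 14.5% of 7144 tested loci with a promoter and in 20.2% of all 27025 genes with one. A gene with several promoters counted if any of its windows held the letters. CCAAT stood in 33, or 55.0%, against 43.9% and 41.1%. Both stood together in 18, or 30.0%, against 7.47% of tested loci and 8.97% of all genes with a promoter. The variant TTTAAA, which reads the same on both strands, stood in 11, or 18.3%. It stood in 785 of 7144 tested loci and in 14.9% of all genes with a promoter. It cannot overlap TTTGAA, and CCAAT can share 1 letter with TTTGAA at most. GGCGG, the core of the cell cycle dependent element, stood in 93.3% of the members. It stood in 87.8% of tested loci and in 51.2% of all genes with a promoter. TTTGAA was found in 8 of 10 mitotic kinesin promoters and in 1 of 8 promoters of the other kinesins. It stood in 3 of 4 condensin, 3 of 5 checkpoint, 3 of 5 outer kinetochore, 2 of 4 centrosome, 3 of 11 inner kinetochore and 3 of 11 anaphase-promoting complex promoters. These are matches of letters in a window, not mapped sites.

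**Figure D1:**
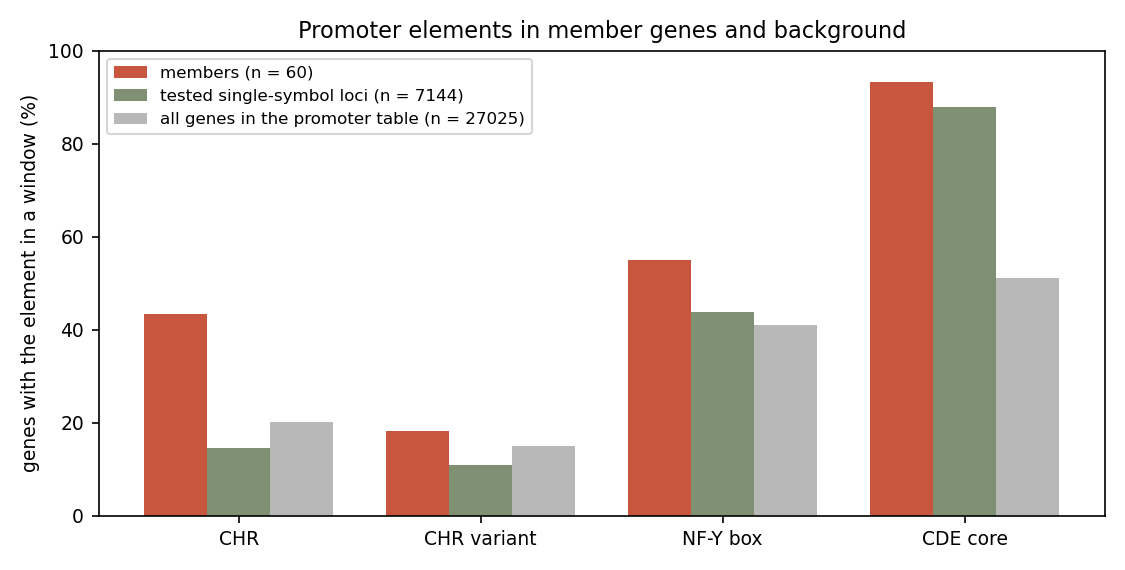
Bars give the share of genes whose promoter window holds each element on either strand. They cover 60 members, 7144 tested loci with 1 symbol and all 27025 genes with a RefSeq promoter. The CHR core stands in 43.3% of member promoters against 14.5% and 20.2%, a wider gap than for the NF-Y box (55.0% against 43.9% and 41.1%).

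Promoters are printed for 3 members whose RNA fell under actinomycin D and that hold TTTGAA (Kif18b, Kif20b and Ndc80), and for Plk1 and Cdc20, a mitotic kinase and the activator of the anaphase-promoting complex. Each runs 5′ to 3′ on the gene's strand, the start site is the base after the first 250 of 300, and capitals mark TTTGAA and CCAAT on either strand (TTCAAA and ATTGG on the opposite one). The windows are chr11:102925075-102925374 on the minus strand for Kif18b, chr19:34922108-34922407 on the plus strand for Kif20b, chr17:71526808-71527107 on the minus strand for Ndc80, chr7:122159185-122159484 on the plus strand for Plk1 and chr4:118437294-118437593 on the minus strand for Cdc20.
Kif18b: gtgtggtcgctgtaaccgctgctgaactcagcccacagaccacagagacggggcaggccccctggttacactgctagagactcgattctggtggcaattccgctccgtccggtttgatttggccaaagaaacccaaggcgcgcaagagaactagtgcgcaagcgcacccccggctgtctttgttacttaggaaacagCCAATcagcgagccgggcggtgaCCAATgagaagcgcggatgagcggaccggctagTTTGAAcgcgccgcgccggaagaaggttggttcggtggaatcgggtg
Kif20b: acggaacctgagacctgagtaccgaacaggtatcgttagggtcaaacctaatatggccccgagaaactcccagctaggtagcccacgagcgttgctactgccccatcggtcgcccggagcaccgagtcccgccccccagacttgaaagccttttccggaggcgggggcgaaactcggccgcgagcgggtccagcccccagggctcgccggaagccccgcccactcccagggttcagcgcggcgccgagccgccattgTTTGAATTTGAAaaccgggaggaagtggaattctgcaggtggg
Ndc80: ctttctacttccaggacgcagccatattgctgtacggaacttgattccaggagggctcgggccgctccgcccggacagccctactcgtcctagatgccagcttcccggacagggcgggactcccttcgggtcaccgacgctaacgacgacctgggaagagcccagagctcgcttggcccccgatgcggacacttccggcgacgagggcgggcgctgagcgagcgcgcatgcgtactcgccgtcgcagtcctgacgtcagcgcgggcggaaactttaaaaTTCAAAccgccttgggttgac
Plk1: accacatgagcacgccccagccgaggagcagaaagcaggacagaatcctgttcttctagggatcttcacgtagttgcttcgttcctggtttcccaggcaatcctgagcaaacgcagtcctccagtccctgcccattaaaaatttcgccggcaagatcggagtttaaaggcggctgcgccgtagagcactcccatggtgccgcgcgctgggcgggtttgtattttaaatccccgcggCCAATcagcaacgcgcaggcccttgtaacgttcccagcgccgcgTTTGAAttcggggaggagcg
Cdc20: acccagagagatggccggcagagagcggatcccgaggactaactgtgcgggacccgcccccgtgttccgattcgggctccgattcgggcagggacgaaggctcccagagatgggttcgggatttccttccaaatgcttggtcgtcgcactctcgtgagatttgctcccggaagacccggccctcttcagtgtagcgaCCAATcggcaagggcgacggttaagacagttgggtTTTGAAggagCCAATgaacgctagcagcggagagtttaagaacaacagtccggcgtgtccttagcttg
In Kif18b the TTTGAA began 3 bases after the start site, with CCAAT beginning 53 and 30 bases before it. Kif20b held 2 TTTGAA in tandem, beginning 7 and 13 bases after the start, and no CCAAT. In Ndc80 the letters stood on the opposite strand, beginning 29 bases after the start. Plk1 held TTTGAA from base 281, which is 30 bases after the start, and Cdc20 from base 233, between a pair of CCAAT boxes. In 4 of the 5 windows the CHR letters thus lay just after the annotated start, and in Cdc20 just before it. All 5, Plk1 and Cdc20 included, were picked because they hold TTTGAA. Positions were not counted in other members or loci, so no general place follows. Of 6 promoters given for members that fell, TTTGAA stood in 3 (50.0%) and CCAAT in 2 (33.3%). Among all members' promoters the shares were 43.3% and 55.0%.

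Facts of the whole set of libraries bear on every value below. Stem cell markers were present in all libraries: 10 of 12 were listed, summing to 896 to 1240 RPKM, of which Pou5f1 alone gave 415 to 799. The markers were not uniform. Zfp42 stood at 120, 52.5 and 24.7 RPKM in wild type and at 30.6, 10.8 and 6.79 in Tet2 KO. Pou5f1, Nanog and Dppa4 were instead the higher in Tet2 KO at each time. Fgf4 went from 34.0 to 3.14 RPKM over 6 h in wild type and from 34.2 to 1.25 in Tet2 KO. Klf4 went from 6.06 to 0.476 and from 8.95 to 0.673. Feeder markers were present too: 18 of 20 fibroblast genes were listed, and none was at 0. Their RPKM summed to 736 at 0 h, 1053 at 3 h and 774 at 6 h in wild type, and to 663, 899 and 889 in Tet2 KO. Dividing fibroblasts also express mitotic genes, the labels do not say whether the feeders could divide, and their part in the results was not tested. In bulk RNA fewer cells of a type and less RNA per cell cannot be told apart. Tet2 RNA was present in both genotypes (wild type 23.7, 17.9 and 12.5 RPKM, Tet2 KO 23.0, 11.2 and 10.1), with a log2 difference of −0.32 (SE 0.20, limma adjusted p = 0.593). RPKM counts the whole transcript, so it does not check a deletion or a frameshift. The median RPKM of all listed loci went from 5.48 to 3.43 in wild type and from 5.31 to 3.57 in Tet2 KO over the 6 h, and the 10 highest loci held 37.2% to 43.0% of each library's summed RPKM. RPKM scales each library by its own size, so a change is relative to the other RNA in the library and not an absolute loss of RNA. Of the 68 members, 17 overlap another protein-coding gene in RefSeq, among them Kif18a (with Mettl15), Anapc10 (Abce1), Anapc13 (Cep63), Cenpu (Primpol), Cdc20 (Elovl1) and Kif20a (Cdc23 and Brd8), and reads could have been shared there.

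Untreated cells expressed every member in both genotypes. Mean levels over the 6 libraries ran from 1.37 to 103 RPKM with a median of 13.2, against 7.25 for all tested loci. Anapc5, a scaffold subunit of the anaphase-promoting complex, had the highest mean, followed by Cdc20 at 69.8, the passenger protein Birc5 (survivin) at 59.5 and the cargo motor Kif5b at 57.3. The members together summed to 1331 RPKM at 0 h, 1383 at 3 h and 955 at 6 h in wild type, and to 1439, 1475 and 1159 in Tet2 KO. In both genotypes the sum was thus highest at 3 h and lowest at 6 h.

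During actinomycin D, 7 members fell and none rose. They were the centriole kinase Plk4, the mitotic kinesins Kif20b, Kif18a and Kif18b, the other kinesins Kif13b and Kif24, and the outer kinetochore subunit Ndc80. Slopes are in log2(RPKM + 1) per hour and were fitted by limma over both genotypes on 11855 loci, with Benjamini-Hochberg adjustment over all of them at 0.05. The 7 are 10.3% of the members. Over all loci 7.91% fell and 0.118% rose (8.03% in all), so the members' share lay near the background. At an unadjusted p under 0.05 the count was 27 of 68, or 39.7%, against 23.8%. The median slope was −0.088 for the members and −0.048 for all loci. The slope was below 0 in 56 members, or 82.4%, against 72.1% of loci. At 6 h the median member stood at 64.2% of its own 0 h level in wild type and 70.0% in Tet2 KO, against 75.0% and 82.4% for all loci. The 6 h level was below the 0 h level in both genotypes in 44 members, or 64.7% against 54.0% of loci, and under 50% of it in both in 10, or 14.7% against 14.2%.

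The count of calls depended on the libraries in the fit, for the members as for all loci. No member was called without the 0 h or the 6 h library of wild type, when 0.953% and 0.0% of loci were, or without the Tet2 KO 0 h library, when 1.48% were. Leaving out the wild type 3 h library left 2 members (Plk4 and Kif20b, 2.94%) against 1.83% of loci, and leaving out the Tet2 KO 6 h library left 3 (these and Kif18a, 4.41%) against 6.32%. With the Tet2 KO 3 h library left out 10 members were called, or 14.7% against 12.5%, with Anapc7, Anapc10 and Kif1b added. The slopes themselves stayed below 0 for all 7 genes in all 6 of these fits, from −0.31 to −0.27 for Plk4, −0.38 to −0.27 for Kif20b and −0.23 to −0.16 for Ndc80. A 3 h library lies at the middle of the course, so leaving it out cannot move the slope. Only the fits without a 0 h or 6 h library could do so, and the 7 genes had been picked for low slopes. After quantile normalization no member and 0.962% of loci were called, and after median ratio scaling Kif20b alone (1.47%) and 1.36% of loci. Those scalings moved the median slope of all loci from −0.048 per hour to 0.016 and 0.0037. The share of members below 0 then went from 82.4% to 60.3% under each, while that of all loci went from 72.1% to 42.4% and 48.5%.

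Plk4, the kinase that starts the building of a new centriole, went from 15.5 to 6.10 to 3.85 RPKM in wild type and from 16.8 to 7.41 to 4.32 in Tet2 KO. Its slope was −0.29 (SE 0.045, limma adjusted p = 0.0115), and 24.8% and 25.7% of the 0 h level was left at 6 h. Both genotypes followed nearly the same course, with most of the drop by 3 h. Kif20b, a motor of the spindle midzone and of cytokinesis, went from 20.6 to 15.6 to 3.69 RPKM in wild type and from 30.0 to 19.5 to 7.49 in Tet2 KO. Its slope of −0.34 (SE 0.056, adjusted p = 0.0134) was the steepest of the 68. Here most of the drop in RPKM came after 3 h.

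Kif18a and Kif18b are kinesin-8 motors that shorten microtubule plus ends. Kif18a went from 12.2 to 7.58 to 3.15 RPKM in wild type and from 16.1 to 5.66 to 3.998 in Tet2 KO (slope −0.29, SE 0.048, limma adjusted p = 0.0146). Kif18b went from 11.9 to 7.66 to 3.03 and from 8.86 to 7.62 to 3.48 RPKM (slope −0.23, SE 0.050, adjusted p = 0.0288). The genotypes crossed in both genes: wild type was the lower at 0 h for Kif18a and the higher for Kif18b, and their 6 h values lay within 1 RPKM of each other. Ndc80, which names the complex that binds microtubules at the kinetochore, went from 12.3 to 10.1 to 4.37 RPKM in wild type and from 17.5 to 15.2 to 7.997 in Tet2 KO. Its slope was −0.20 (SE 0.048, adjusted p = 0.0450).

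Kif13b, a transport motor, went from 6.09 to 4.70 to 2.26 RPKM in wild type and from 8.86 to 3.46 to 2.36 in Tet2 KO (slope −0.22, SE 0.050, limma adjusted p = 0.0334). Kif24, a kinesin-13 that acts at the centriole and restrains cilia, went from 4.13 to 4.23 to 1.19 and from 7.40 to 3.58 to 2.08 RPKM (slope −0.22, SE 0.054, adjusted p = 0.0450). In wild type Kif24 did not drop until after 3 h, while in Tet2 KO the larger part of the drop came by then. The 7 genes span 16933 to 157127 bases in RefSeq, with a median of 53416. The other 61 members span 2955 to 283270 bases, with a median of 30657, so the ranges overlap. A difference in span was not tested.

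**Figure D2:**
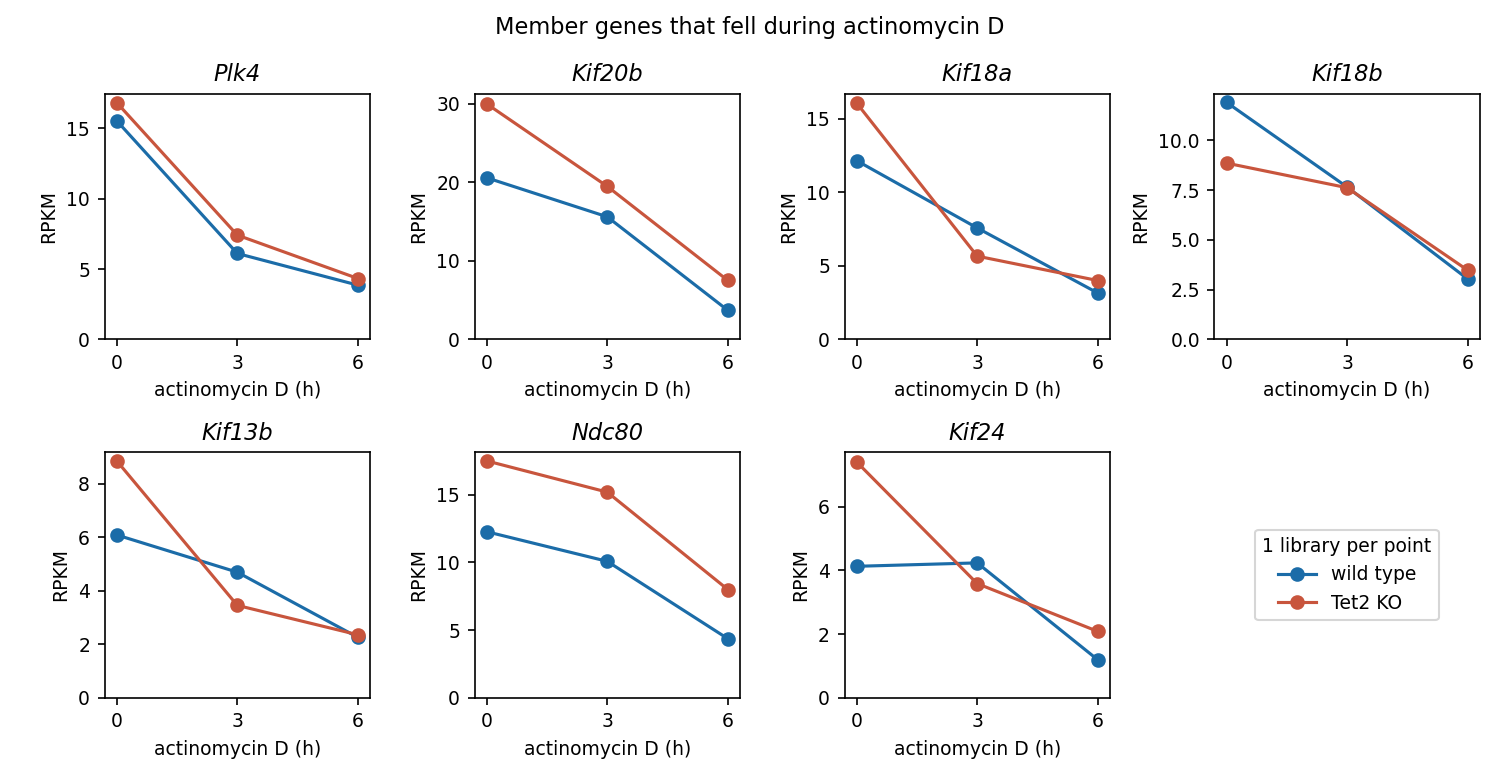
Each panel gives the RPKM of 1 member whose RNA fell, against hours of actinomycin D, with 1 library per point and lines joining the libraries of a genotype (blue wild type, red Tet2 KO). At 6 h between 17.9% (Kif20b) and 37.1% (Kif13b) of the 0 h level is left in wild type, and between 24.9% (Kif18a) and 45.7% (Ndc80) in Tet2 KO.

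Among the 11 mitotic kinesins all slopes were below 0, with a median of −0.12. Beside the 3 that fell were Kif2a (−0.15) and Kif2c (−0.09), which depolymerise microtubules, and Kif4 (−0.15) and Kif22 (−0.12), chromokinesins that bind chromosome arms. Kif11, the motor that pushes spindle poles apart, had a slope of −0.12, Kif20a and Kif23, the midzone motors of cytokinesis, −0.10 and −0.09, and Kif14, a midbody motor, −0.02. None of these 8 passed, with limma adjusted p-values from 0.0916 to 0.812. Kif20a had the highest mean of the group at 27.2 RPKM (31.4, 22.7 and 23.8 in wild type, 34.0, 32.9 and 18.7 in Tet2 KO). Kif14 had the largest p, with 3.84, 4.42 and 4.19 RPKM in wild type and with 5.71, 5.03 and 4.085 in Tet2 KO. The median mitotic kinesin kept 55.9% of its 0 h level in wild type and 54.9% in Tet2 KO. Set against the median over all loci, the group's median slope was −0.077, and it lay between −0.11 and −0.069 over the alternatives run. After either rescaling 10 of the 11 slopes were below 0.

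The 4 centrosome and spindle pole genes had a median slope of −0.14, or −0.089 relative to all loci. Beside Plk4, Aurka (−0.14, limma adjusted p = 0.112), the kinase of spindle pole maturation, went from 16.3 to 12.0 to 7.502 RPKM in wild type and from 19.2 to 10.8 to 11.9 in Tet2 KO. Plk1, the master kinase of mitotic entry (−0.13, adjusted p = 0.126), went from 28.6 to 13.8 to 13.5 and from 17.4 to 14.8 to 11.2 RPKM. In wild type its 3 h and 6 h values were thus nearly the same. Cenpj, a centriole assembly protein, was low in all libraries, between 0.780 and 2.34 RPKM.

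The kinetochore and checkpoint genes were mixed. Of 6 outer kinetochore genes 5 had slopes below 0, with a median of −0.093, and Ndc80 alone passed. Its partner Nuf2 stood at 9.16, 11.6 and 9.75 RPKM in wild type and at 12.5, 17.95 and 10.1 in Tet2 KO, a slope of −0.017 (limma adjusted p = 0.901). The 2 proteins form 1 dimer, and their transcripts thus had different courses in the same libraries, a difference that was not tested. The fibrous corona proteins Cenpe and Cenpf had slopes of −0.11 and −0.077, and Spc25 and Spc24, the other dimer of the same complex, −0.17 and 0.085. The 5 checkpoint genes ran from −0.14 for Ttk (Mps1, the kinase at the head of the checkpoint, adjusted p = 0.127) to −0.029 for Bub1b, with Bub1 at −0.089, Bub3 at −0.067 and Mad2l1 at −0.030, and none passed. Bub3 had the highest level there (53.6, 47.2 and 29.5 RPKM in wild type, 39.8, 50.6 and 40.8 in Tet2 KO), and Mad2l1, whose product binds Cdc20, ran from 23.8 to 40.1 RPKM over the 6 libraries with no pass.

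The 11 inner kinetochore genes had a median slope of −0.049, close to that of all loci, and none passed. Cenph had the smallest p (19.98, 17.2 and 9.61 RPKM in wild type, 33.8, 20.2 and 17.7 in Tet2 KO, slope −0.16, SE 0.043, limma adjusted p = 0.0643). Slopes of Cenpi, Cenpo and Cenpn were −0.15, −0.14 and −0.10, those of Cenps, Cenpm, Cenpw, Cenpp and Cenpa between −0.052 and −0.019, and those of Cenpu and Cenpx 0.052 and 0.093. Cenpa itself, the centromeric histone, stood at 26.8, 27.8 and 22.5 RPKM in wild type and at 31.3, 23.7 and 31.5 in Tet2 KO. Cenpp, at 9.38 to 15.6 RPKM, had the largest p of the group.

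The anaphase-promoting complex stood at the other end. Its 11 genes had a median slope of −0.0087, which is 0.039 above that of all loci and stayed above it under every alternative run (0.021 to 0.055). The median member kept 95.4% of its 0 h level in wild type and 103% in Tet2 KO. Anapc5, the largest in level, stood at 93.0, 129 and 88.8 RPKM in wild type and at 96.3, 101 and 107 in Tet2 KO. Slopes of Anapc1, Anapc4, Anapc11, Anapc13, Anapc15 and Anapc16 lay between −0.039 and 0.071, with that of Anapc2, a cullin subunit of the catalytic core, at 0.11. The lowest slopes, neither of which passed, were those of Anapc7, a scaffold subunit (15.3, 9.91 and 6.47 RPKM in wild type, 13.4, 12.8 and 6.08 in Tet2 KO, slope −0.18, SE 0.046, limma adjusted p = 0.0518), and Anapc10, a substrate receptor (slope −0.20, adjusted p = 0.0918). Cdc20, the activator, went from 75.2 to 69.1 to 40.1 RPKM in wild type and from 79.0 to 86.8 to 68.9 in Tet2 KO (slope −0.090, adjusted p = 0.283). Anapc7 passed with a pseudocount of 0.1, with a mean RPKM of at least 5 and without the Tet2 KO 3 h library.

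No gene of the passenger complex or of condensin passed. Birc5 had slope −0.040, Aurkb −0.080 and Incenp −0.13. The condensin subunits Ncapg, Ncapg2, Ncapd3 and Ncaph2 had slopes from −0.090 to −0.015. Ncapg, of condensin I, stood at 25.8, 34.0 and 23.3 RPKM in wild type and at 44.9, 37.5 and 26.6 in Tet2 KO, and Ncaph2, of condensin II, at 32.8, 52.1 and 27.1 and 28.0, 37.7 and 29.8.

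Of the 12 transport, ciliary and other kinesins 8 had slopes below 0, with a median of −0.084, and Kif13b and Kif24 passed. The highest was Kif5b, a conventional kinesin that carries cargo along microtubules, with 37.9, 67.4 and 49.6 RPKM in wild type and with 71.0, 57.2 and 60.6 in Tet2 KO. Kif3a and Kif3b, the kinesin-2 motors that build cilia, both had slopes of −0.12, Kif1b and Kif13a, which carry vesicles, −0.18 and −0.17, and Kif16b, an endosomal motor, −0.047. The neuronal relatives Kif5a, Kif5c, Kif1a and Kif21b had means under 4 RPKM. Kif5c stood between 1.78 and 2.25 RPKM in 5 libraries and at 12.7 in the Tet2 KO 3 h library alone. Kif1bp, the binding protein, had a slope of −0.14 (limma adjusted p = 0.0859).

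**Figure D3:**
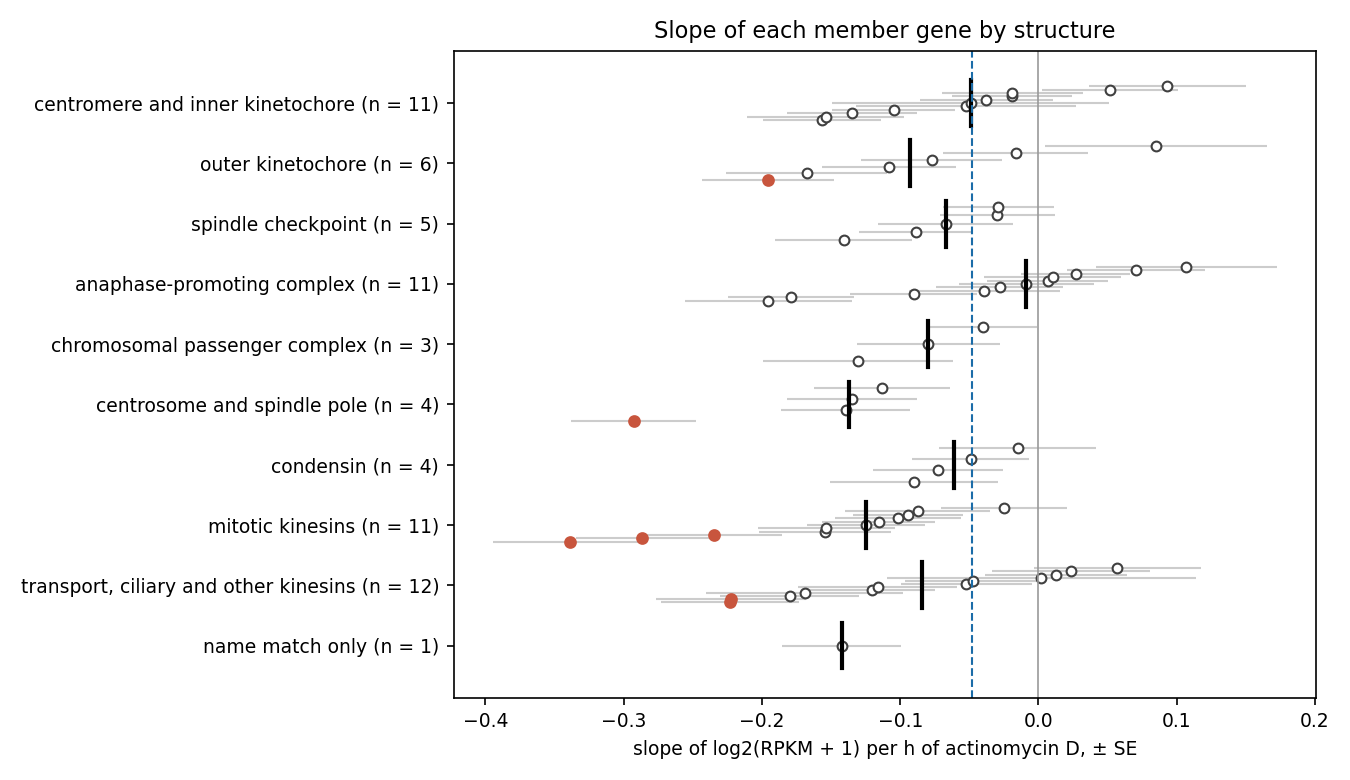
Each point is the slope of 1 member in log2(RPKM + 1) per hour with its SE, grouped by structure, red where the RNA fell by limma at an adjusted p of 0.05. Black bars are group medians, from −0.14 (centrosome and spindle pole) to −0.0087 (anaphase-promoting complex) among groups of more than 1 gene, and the dashed line is the median of all tested loci, −0.048.

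The step from 0 to 3 h and the step from 3 to 6 h share the 3 h libraries, so they are set side by side. No member passed at either step in limma. At the early step 7 members had an unadjusted p under 0.05, or 10.3% against 14.4% of loci, of which 0.54% were called (0.506% lower, 0.0337% higher). At the late step 13 had, or 19.1% against 12.5%, and no locus at all was called. Early, 36 of 68 members (52.9%) were below 0, as were 52.3% of loci. Late, 64 of 68 (94.1%) were, against 81.4%. In the anaphase-promoting complex 1 of 11 genes was below 0 early and all 11 were late, and in condensin 0 of 4 and all 4. The 4 centrosome genes were all below 0 at both steps, with a larger median early (−0.60) than late (−0.29).

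Of smallest p at the early step were Plk4, Anapc2, Kif18a, Cenpu and the transport motor Kif13a, with log2 differences of −1.15, 1.04, −0.99, 0.61 and −1.09 and limma adjusted p-values of 0.121, 0.159, 0.222, 0.272 and 0.2804. Kif13a stood at 10.7 RPKM at 0 h and 2.83 at 3 h in Tet2 KO, and at 4.60 and 2.80 in wild type. Anapc2 stood at 15.0, 34.3 and 19.9 RPKM in wild type and at 12.7, 25.3 and 24.5 in Tet2 KO, lowest at 0 h in both. At the late step Kif20b had −1.55 (adjusted p = 0.299), Anapc10 −1.23, Kif18b −1.02, Ndc80 −0.95 and Ttk −0.84. The difference between the steps was tested itself, and no locus passed: 7 members had an unadjusted p under 0.05, or 10.3% against 7.59%, and 50 members (73.5%, against 64.8% of loci) had the lower value at the late step. Of smallest p was Anapc2 (−1.44, adjusted p = 0.609), then Anapc10, Ncaph2, Anapc4 and Cenpu.

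Between genotypes no member passed. The contrast of Tet2 KO with wild type, with time as a block, called 9 of 11855 loci, or 0.0759% (0.0675% lower and 0.00844% higher in Tet2 KO), and none of the 68. At an unadjusted p under 0.05 there were 8 members, or 11.8%, against 10.8%, so the members' share lay near the background. The estimates leaned one way: 51 of 68 were above 0, leaving 25.0% below against 45.3% of loci, and the median log2 difference was 0.13 for the members and 0.037 for all loci. Tet2 KO was the higher at all 3 times in 19 members (27.9%, against 20.8% of loci) and the lower at all 3 in 3 (4.41%, against 14.1%). By structure the median was highest in the outer kinetochore (0.34, 6 genes) and lowest in the passenger complex (−0.21, 3 genes), and over the alternatives run these medians lay 0.22 to 0.43 above and 0.094 to 0.31 below that of all loci. These alternatives were not all separate checks. Dropping the variance trend or the time block cannot move the estimates, and leaving out either library of a time gave the same value.

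The smallest p belonged to Anapc4, a platform subunit of the anaphase-promoting complex. It stood at 15.1, 21.9 and 16.1 RPKM in wild type and at 31.9, 45.2 and 32.8 in Tet2 KO, with no overlap between genotypes and about the same course in time (log2 difference 1.01, SE 0.16, limma adjusted p = 0.162). Anapc13, a small subunit of the same complex, went the other way without overlap (44.1, 57.1 and 53.8 against 34.5, 35.3 and 35.6 RPKM, log2 difference −0.53, adjusted p = 0.379). Anapc10 stood at 19.1, 16.1 and 7.45 against 27.0, 34.6 and 12.1 RPKM, higher in Tet2 KO at each time (0.73, adjusted p = 0.339). The estimates for these subunits of 1 complex, named for their small p, thus lay in both directions, and none passed the threshold.

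Cenpu, an inner kinetochore protein that recruits Plk1, stood at 12.0, 19.0 and 15.6 RPKM in wild type and at 18.9, 29.1 and 22.9 in Tet2 KO (log2 difference 0.58, limma adjusted p = 0.357). Ndc80, given above, was higher in Tet2 KO at each time (0.59, adjusted p = 0.3835). Spc25 followed with 0.88, then Cenph and Kif20b. The genotypes did not overlap in 4 members, Anapc4, Anapc13, Mad2l1 and Kif5a, which is 5.88% against 10.7% of loci.

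**Figure D4:**
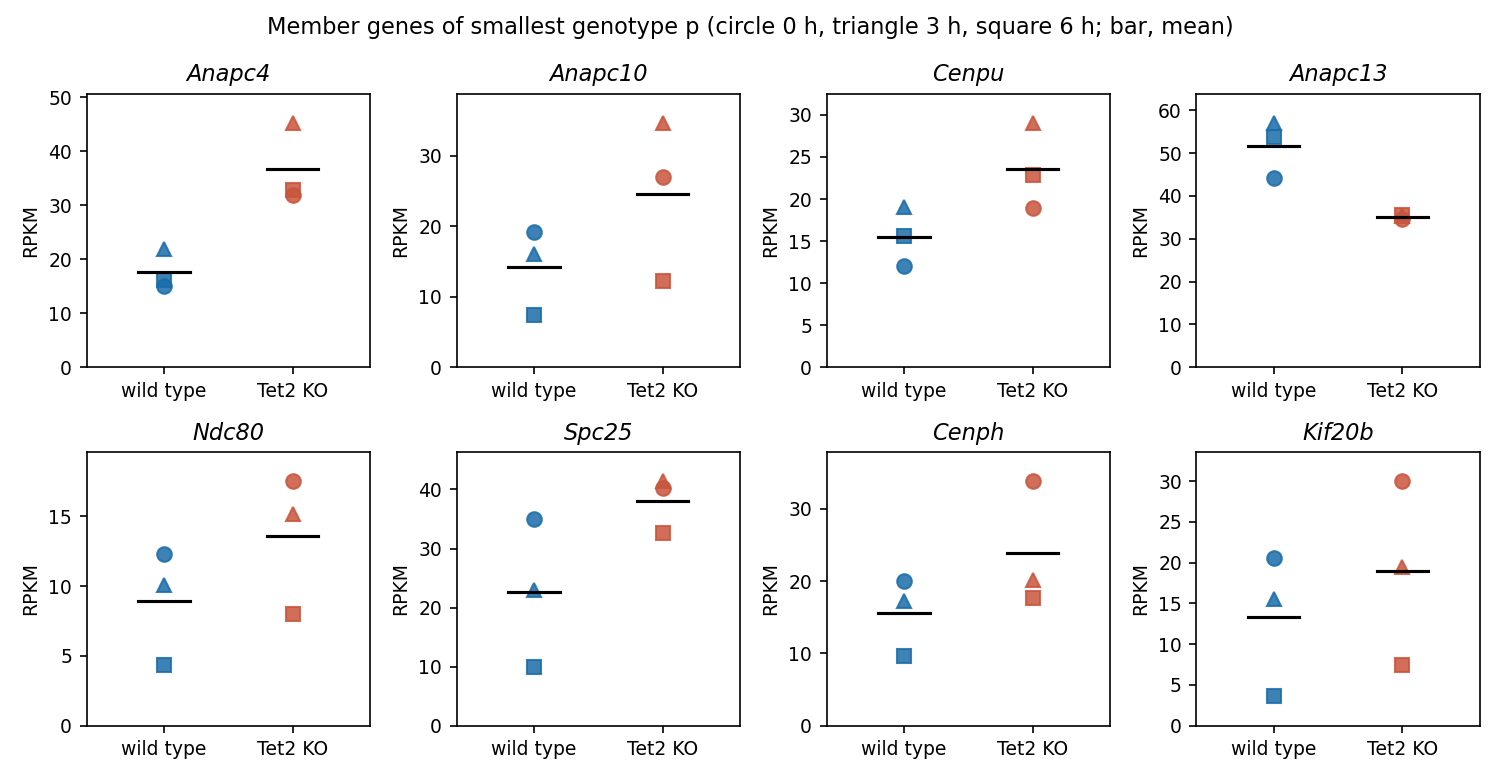
RPKM of the 8 members of smallest genotype p, with wild type in blue and Tet2 KO in red, 1 library per point (circle 0 h, triangle 3 h, square 6 h) and the mean of 3 as a bar. Anapc4 and Anapc13 do not overlap between genotypes, in opposite directions, and none of the 8 passed limma's test.

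The difference in slope between genotypes is the test of whether the knockout changed the course. No member and no locus passed in limma, and 3 members (4.41%, against 4.12% of loci) had an unadjusted p under 0.05. The slope was the lower in Tet2 KO in 27 members, or 39.7% against 39.1%. Incenp, the scaffold of the passenger complex, stood at 18.3, 14.7 and 20.1 RPKM in wild type and at 36.7, 23.2 and 10.6 in Tet2 KO, a slope difference of −0.30 (SE 0.10, adjusted p = 1.00). Spc25 went from 35.0 to 23.0 to 9.97 RPKM in wild type and stood at 40.2, 41.4 and 32.55 in Tet2 KO (0.24). Its dimer partner Spc24 stood at 34.6, 39.9 and 28.9 and at 13.4, 47.6 and 33.8 (0.25).

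Cenpm, an inner kinetochore subunit with 49.5, 34.4 and 18.2 RPKM in wild type and with 19.1, 68.3 and 34.1 in Tet2 KO, had a slope difference of 0.37. Kif21b had one of 0.20, at 2.63 RPKM or less. Without the Tet2 KO 0 h library the differences of Spc24 and Cenpm were both below 0 (−0.12 and −0.09), and Kif5c was called, 1 of 68 members (1.47%) against 293 loci (2.47%). Without the Tet2 KO 6 h library Cenpm and Kif5c were called (2.94%), against 263 loci (2.22%), so both shares lay near the background. For Kif5c these calls rest on its value of 12.7 RPKM in 1 library.

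Genes of the same pathway outside the name patterns gave a similar count. Where 7.91% of all loci fell under actinomycin D, 6 of the 53 that could be tested did, and none rose. They were Mis12, a kinetochore platform protein (−0.33), Lin9, a MuvB subunit (−0.35), the cohesin protectors Sgo1 (−0.39) and Sgo2a (−0.22), the centrosome kinase Nek2 (−0.22) and cyclin B1, Ccnb1 (−0.16), with limma adjusted p-values from 0.00977 to 0.0423. Sgo1 went from 11.7 to 2.85 to 1.11 RPKM in wild type and from 9.13 to 1.99 to 1.34 in Tet2 KO, most of it by 3 h as for Plk4. Slopes were below 0 in 44 of the 53 (83.0%, against 72.1% of loci), with a median of −0.065. After quantile normalization none of the 53 was called, and after median ratio scaling 1 was. The share below 0 was then 58.5% and 52.8%, against 42.4% and 48.5% of loci. Between genotypes none passed, and of smallest p were Pttg1, securin (log2 difference −1.46, adjusted p = 0.136), the cytokinesis protein Anln (0.91, adjusted p = 0.251) and Nsl1, a partner of Mis12 (−0.99, adjusted p = 0.316).

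Bisulfite sequencing listed m5C sites in 32 of the 68 members, or 47.1% (exact 95% interval over genes 34.8% to 59.6%), against 3510 of 8645 tested protein-coding loci, or 40.6%. Their spans held 48 sites on GRCm38. The one in Aurka lies on the strand opposite to the gene, within Cstf1, and was left out, and for 10 sites the member's strand was not known here. Sites also lie within Tomt (1 of the 2 in Anapc15), Cdc23 (that in Kif20a) and Sco2 and Tymp (1 of the 2 in Ncaph2). Of the 47 counted, 5 were listed in both genotypes (10.6%, exact 95% interval 3.5% to 23.1%), 22 in wild type only (46.8%, 32.1% to 61.9%) and 20 in Tet2 KO only (42.6%, 28.3% to 57.8%). Over all 7870 sites the shares were 13.2%, 39.3% and 47.5%. Some members held several sites, which the intervals count as independent, so they may be too narrow. A site not listed may have been below the lowest level listed, 0.1, or not covered. Coverage was not given, so the depth behind a level is unknown, and the intervals cover the counting of sites and genes only.

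Levels were low. The median site of the members had a level of 0.136 in wild type (27 sites) and 0.171 in Tet2 KO (25 sites), against 0.143 and 0.148 over all sites. The highest belonged to Anapc11, the RING subunit that recruits ubiquitin-conjugating enzymes, at chr11:120605606 on the plus strand, with 0.5 and 0.258 in the wild type samples and 0.429 and 0.421 in the Tet2 KO samples. The wild type samples differed from each other by more than the genotypes did.

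The other 4 shared sites lay below 0.3 in every sample. Cdc20 at chr4:118432972 (minus strand, 71 bases before the gene's end) had wild type levels of 0.146 and 0.257 and Tet2 KO levels of 0.131 and 0.103. Cenpw, an inner kinetochore histone-fold protein, at chr10:30200504 (minus strand, 99 bases after the start) had 0.214 and 0.15 against 0.167 and 0.194. Cenph at chr13:100775649 (minus strand, 254 bases after the start) had 0.167 and 0.182 against 0.154 and 0.25. Bub1 at chr2:127827406 (minus strand) had 0.188 and 0.19 against 0.2 and 0.133. In limma on arcsine square root levels over 1039 shared sites none of the 5 passed (adjusted p from 0.724 for Cdc20 to 0.994 for Cenpw), nor did any other site, and 79 of the 1039 had an unadjusted p under 0.05.

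**Figure D5:**
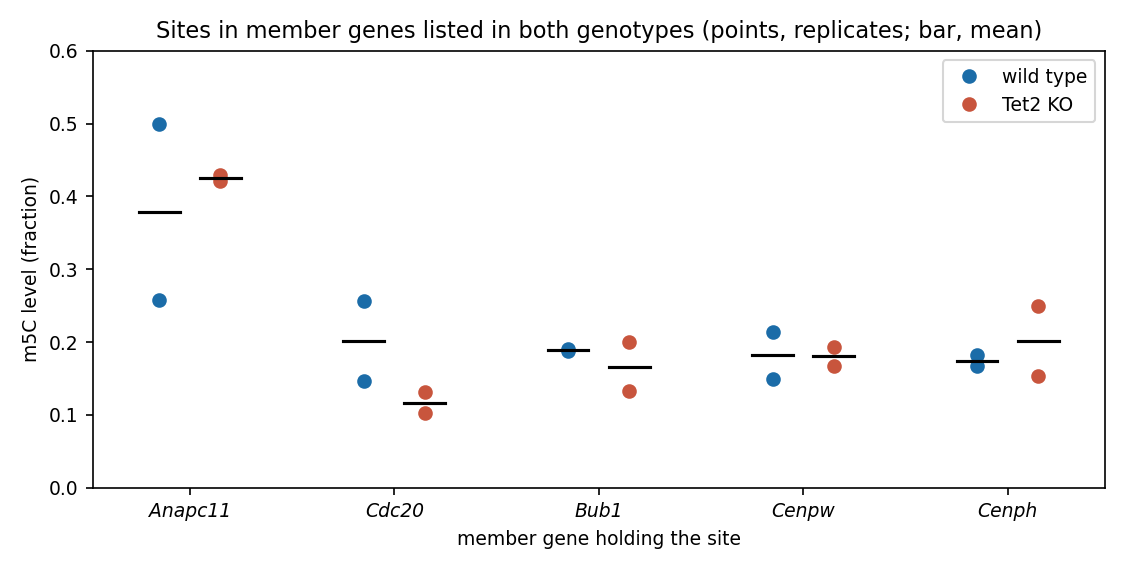
m5C level (fraction of reads called methylated) at the 5 member sites listed in both genotypes, 2 samples per genotype (points) and their mean (bars). Anapc11 is highest, with wild type samples at 0.5 and 0.258, and none of the 5 passed limma's test.

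Sites listed in 1 genotype have values there only and no test. Of the members whose RNA fell, Kif20b had a site in wild type only, 97 bases after the start (0.154 and 0.167), and Kif13b 1 in wild type only (0.154 and 0.118). Plk4 (0.231 and 0.143) and Kif18b (0.143 and 0.308, 159 bases before the gene's end) each had 1 in Tet2 KO only. Kif18a, Ndc80 and Kif24 had none listed. Bub1b held 3 sites, 2 in Tet2 KO only (0.286 and 0.19, and 0.174 and 0.158 at 104 bases before the end) and 1 in wild type only (0.1 and 0.167). Ttk had 1 in Tet2 KO only, at 0.1 in both samples and 296 bases before the end.

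Among subunits of the anaphase-promoting complex, Anapc1 held a site in wild type only 215 bases after its start (0.167 and 0.111) and another in Tet2 KO only (0.231 and 0.111). Anapc16 had 1 in wild type only (0.176 and 0.125), and Anapc15 (2 sites), Anapc5 and Cdc20 had sites in Tet2 KO only, from 0.1 to 0.25. In the outer kinetochore Cenpe, Cenpf (2 sites) and Spc25 had sites in wild type only, from 0.1 to 0.158, and in the inner kinetochore Cenpm had 1 in Tet2 KO only (0.109 and 0.116). Incenp had 1 in Tet2 KO only (0.114 and 0.138). Bub1 held a further site in Tet2 KO only (0.111 and 0.133).

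Kinesins held 20 of the 47 sites. Kif11 (0.105 and 0.357), Kif23 (0.158 and 0.171), Kif20a, Kif1a (2 sites) and Kif5b (3 sites) had sites in wild type only, Kif5a (0.118 and 0.105) and Kif5c (0.156 and 0.2) in Tet2 KO only, and Kif3a, Kif3b and Kif21b in each genotype at different positions. Ncapd3 (0.1 and 0.167) had 1 in wild type only, and Ncaph2 1 in each genotype. Sites stood in 8 of the 12 other kinesins, 5 of 11 mitotic kinesins, 3 of 11 inner and 3 of 6 outer kinetochore genes. They stood in 6 of 11 anaphase-promoting complex, 3 of 5 checkpoint, 2 of 4 condensin, 1 of 4 centrosome and 1 of 3 passenger genes. RefSeq spans ran from 38548 to 283270 bases in the other kinesins and from 2955 to 188926 in the inner kinetochore genes. The part of span length was not tested. Where the strand was not known here, as for Kif13b, Kif21b, Kif5a and Kif5b, sites on either strand counted.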

How the data were processed

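RNA-seq and RNA bisulfite samples were grouped by genotype, time and replicate from their titles. The RNA table gives RPKM per locus as deposited by the authors (1 header lacks a letter and was read as that unit). The site tables hold the m5C level as a deposited fraction per site and replicate, per the file headers, without coverage. Bowtie2, Cufflinks, MACS2, DESeq2 and Trimmomatic, with builds mm10 and GRCm38, are named in the submitters' processing notes; the sources used here give no roles, versions, strand use or treatment of multiply mapped reads, each of which could change a level.

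R 4.3.3 and limma 3.58.1 were used to test log2(RPKM + 1), a scale that understates the change of low genes. The fit took loci whose mean RPKM was 1 or more, with a variance trend, two-sided tests and Benjamini-Hochberg adjustment at 0.05. The slope fit had genotype as a factor (3 residual degrees of freedom) and the genotype fit had time as a block (2). Loci with several symbols stayed in the fit and out of the members. Depth is not given, and multiples of 1 read in low values did not settle the relative depth. The slope fit and the site fit were tried on simulated data, and the fits of the other contrasts were not.

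Sites were matched to RefSeq spans on GRCm38.p6 by position and strand; exons, UTRs and the sequence around sites were not analysed here. All 68 members matched that table. Replicate numbers of the bisulfite samples do not pair them in the labels. Members, groups, pathway and marker lists were chosen with earlier results of these data known. Genes named are those that passed or, with under 5 passing, the 5 of smallest p per contrast, those of smallest and largest p and highest level per group, and those with a site. Alternatives changed the pseudocount, filter, scaling, trend, block and level transform, took 1 genotype alone, or left out each library. Dropping the trend or a 3 h library cannot move a slope estimate, so the ranges of slopes over alternatives repeat the main value there. Dropping the trend or the block cannot move a genotype estimate.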

Additional observations from a re-analysis of the deposited data

How the results depend on the processing

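The count of 7 members with a called slope, with 952 over all loci, was 3 with no filter on low loci, 0 after quantile normalization, 1 after median ratio scaling, 0 in Tet2 KO alone, and 0 to 10 when 1 library was left out (0 to 1476 over all loci). Fits without a library or with 1 genotype have fewer libraries, and the cause was not tested otherwise. It was 8 with a pseudocount of 0.1, 6 with a mean RPKM of at least 5, 7 without the variance trend and 5 in wild type alone. Genotype and step counts stayed at 0 under each alternative run. The count of slope differences, 0, ran from 0 to 2 when 1 library was left out, and that over all loci from 0 to 293, with 293, 177 and 263 without the Tet2 KO 0, 3 and 6 h library. Named genes kept their direction and side of the threshold in 445 comparisons, lost the call in 57, gained one in 4 and reversed in 8. Reversed were the slope differences of Cenpm and Spc24, which ran from −0.093 to 0.83 and from −0.12 to 0.63 when 1 library was left out, lowest without the Tet2 KO 0 h and highest without the Tet2 KO 6 h library, and the slope of Incenp in wild type alone (0.021). So were site differences on the arcsine scale with 1 sample left out: they ran from −0.075 to 0.18 for Anapc11, −0.076 to 0.014 for Bub1, −0.028 to 0.093 for Cenph and −0.042 to 0.041 for Cenpw. For the bisulfite samples a fit with the replicate number as a block called 0 of the 5 sites, as without it, and deviations of same-numbered samples had a correlation of −0.003 over 1039 sites, so the numbers were not taken to pair the samples. The RNA genotype test blocked on time; with no time block it called 0 members too. With 1 library per genotype and time, and no coverage of sites, small differences were not detectable.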

Other observations

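Loci that carry several symbols were not members, but 5 of them hold a matching gene. The locus of the condensin I subunit Ncapd2 includes the small Cajal body RNA Scarna10 and stood at 1262, 1437 and 1449 RPKM at the 3 times in wild type and at 1081, 1267 and 1300.3 in Tet2 KO, far above the 103 RPKM of the highest member, so it cannot be read as Ncapd2 alone. Kif28 shares a locus with the nuclear pore gene Ahctf1 (12.9 to 30.6 RPKM), Cenpb, which binds a centromeric DNA box, with Spef1 (4.58 to 6.14 RPKM), Kif1c with Mir6925 (4.20 to 6.54 RPKM) and Kif27 with Mir6369 (0.0953 to 3.28 RPKM).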
